A study of Sus scrofa with 6 samples.

Results

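The RFX family is a set of transcription factors and partner subunits named after the regulatory factor that binds the X box of antigen-presentation promoters. Of 7 family symbols, RFX1, RFX2, RFX3, RFX5, RFX7, RFXANK and RFXAP, 6 had a row among the 22844 rows of the deposited tables, and the symbol table used here pairs no identifier with RFXAP. All 6 passed the filter of a mean of at least 0.5 TPM (a transcript level scaled for length and library total), which kept 14908 rows. The family was selected on the diet difference of RFX2, which was lower with resveratrol and had the smallest unadjusted p of all tested rows. The diet difference of RFX2 is therefore given as a description with no test. RNA came from the subcutaneous fat of Duroc × Landrace × Yorkshire pigs, with 3 libraries from pigs whose feed held 400 mg/kg of the plant polyphenol resveratrol (RES in the labels) and 3 from pigs fed the control diet. Nothing in the labels states whether each library stands for another animal, and the p-values then cover only the spread among these libraries, which may be technical. Age, sex and feeding time are not in the labels used here.

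RFX factors bind the X box, an imperfect inverted repeat, through a winged-helix DNA-binding domain. RFX1, RFX2 and RFX3 are close paralogs that dimerise. In mouse and frog, RFX2 and RFX3 drive genes of cilia, and mouse RFX2 is needed for the late steps of sperm formation. RFX5, RFXANK and RFXAP form a different complex, which binds promoters of major histocompatibility complex (MHC) class II genes and, in humans, causes severe immunodeficiency when any subunit is lost. RFX7 has been described in human cells as a factor downstream of p53 that activates growth-restraining genes.

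Library totals ran from 34436239 to 37943877 reads in resveratrol and from 16251536 to 34048559 reads in control, the lowest being control 2. Adipocyte genes marked the tissue as labelled. ADIPOQ, the hormone adiponectin, averaged 4565 ± 123 TPM in resveratrol and 3817 ± 215 TPM in control (SD, n = 3 each). Of 7 tested adipocyte markers 6 had a log2 fold change above 0 and 1, LEP, below. LEP averaged 13.4 ± 6.39 TPM in resveratrol and 22.3 ± 7.45 TPM in control, with overlapping groups. Of 5 B cell markers none reached 1 TPM in any library, and all 5 tendon and cartilage markers had a log2 fold change below 0. In edgeR's quasi-likelihood test 0 of 14908 rows (0%) passed a Benjamini-Hochberg adjusted p under 0.05. At an unadjusted p under 0.05 there were 973 (6.53%), 644 lower (4.32%) and 329 higher (2.21%) in resveratrol. With library totals alone as the scaling this split was 339 lower and 605 higher. DESeq2 called 40 rows (0.268%).

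The family spanned a wide range of levels. Over all 6 libraries RFXANK, the ankyrin-repeat subunit of the MHC class II complex, was the most abundant at 21.4 ± 2.33 TPM (SD, n = 6), above 74% of tested rows, whose median was 8.53 TPM. The other 5 genes lay below that median. RFX5 averaged 4.51 ± 1.02 TPM, RFX1 3.74 ± 0.967, RFX2 3.17 ± 1.503, RFX3 1.87 ± 0.514 and RFX7 1.75 ± 0.782 TPM. RFXANK exceeded each other member in all 6 libraries, by 3.38 to 6.30 times over RFX5, and RFX5 exceeded RFX1 in all 6 by 1.05 to 1.54 times. The order of RFX1 and RFX2 depended on the library: RFX1 was the higher of the pair in 3 of 3 resveratrol libraries and in 1 of 3 control libraries. RFX3 and RFX7, the lowest members, overlapped in range, and RFX3 was above RFX7 in 4 of 6 libraries. RFX6, a factor of pancreatic islets, had at most 13 reads in a library, and RFX8 had 0 reads in all 6.

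**Figure D1:**
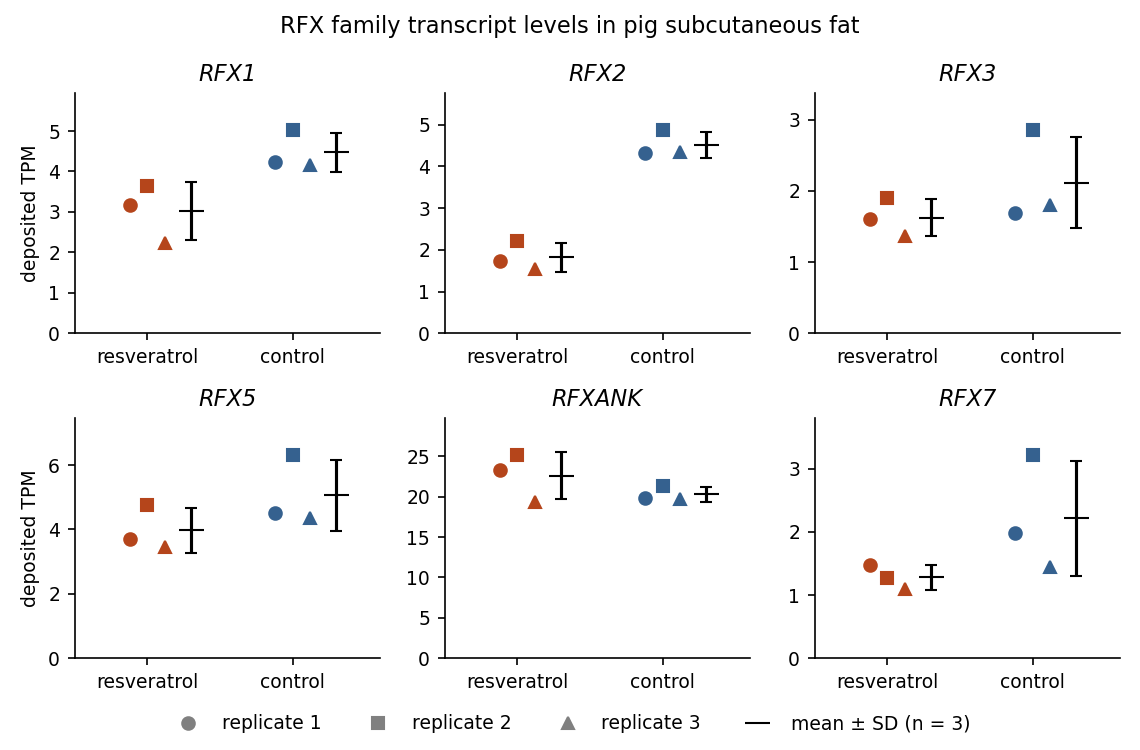
Deposited TPM (vertical axes, each from 0) of the 6 RFX family genes in the 3 resveratrol libraries (left, red) and the 3 control libraries (right, blue), with marker shape for the replicate number and the mean ± SD of each group beside the points. For RFX1 and RFX2 the highest resveratrol library lies below the lowest control library, and the groups of the other 4 genes overlap in TPM.

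RFX2 measured 1.73, 2.21 and 1.53 TPM in resveratrol 1, 2 and 3, against 4.33, 4.87 and 4.35 TPM in control 1, 2 and 3. The groups did not overlap, and a gap that is wide beside the spread is what the selection of RFX2 picks out. The reads behind these values numbered 230, 291 and 188 in resveratrol and 468, 266 and 486 in control, with the fewest control reads in control 2, the shallowest library. The means were 1.83 ± 0.349 TPM in resveratrol and 4.52 ± 0.307 TPM in control (SD, n = 3 each). On read counts scaled by the trimmed mean of M values (TMM) the log2 fold change, resveratrol over control, was -1.27 (SE 0.19), which is 41.6% of the control level. In whole fat, fewer cells of a type and less RNA per cell cannot be told apart. The log2 fold change lay between -1.42 and -1.16 when any 1 library was left out. The transcript length behind the TPM values was read as reads per TPM relative to the library median. It stayed within 0.932 to 1.03 of the gene's own mean in every library. TPM and scaled counts both put every resveratrol library below every control library. Within control, control 2 was the highest in TPM and the lowest in scaled counts.

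RFX1, the widely expressed paralog, measured 3.18, 3.63 and 2.23 TPM in resveratrol 1, 2 and 3, against 4.24, 5.02 and 4.15 TPM in control 1, 2 and 3. The lowest control library stood above the highest resveratrol library, and resveratrol 3 was the lowest of all. Its log2 fold change was -0.53 (SE 0.18, unadjusted p = 0.0142), and edgeR's adjusted p was 0.733. Without resveratrol 3 the log2 fold change was -0.39 (unadjusted p = 0.0695). RFX3, the paralog with the best known part in cilia and islet cells of mice, measured 1.61, 1.89 and 1.37 TPM in resveratrol, against 1.70, 2.85 and 1.80 TPM in control. Here the groups overlapped and control 2 alone stood high. The log2 fold change was -0.25 (SE 0.21, 95% interval -0.72 to 0.23, edgeR adjusted p = 0.783), and -0.10 without control 2.

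The make-up of the RFX1, RFX2 and RFX3 trio thus differed between the groups as well as its sum. Summed TPM of the trio was 6.52, 7.74 and 5.13 in resveratrol 1, 2 and 3 and 10.3, 12.7 and 10.3 in control 1, 2 and 3. RFX2 made up 26.6%, 28.6% and 29.9% of this sum in resveratrol, against 42.2%, 38.2% and 42.2% in control. The share of RFX3 was 24.5% to 26.7% in resveratrol and 16.5% to 22.4% in control. These shares and the sum contain RFX2, so they follow in part from its selection and are descriptions. The ratio of RFX1 to RFX3, which leaves RFX2 out, was 1.84 ± 0.188 in resveratrol and 2.19 ± 0.383 in control (SD, n = 3 each), with overlapping libraries (exact permutation test, two-sided p = 0.3, 0.3 after adjustment over 2 ratios).

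**Figure D2:**
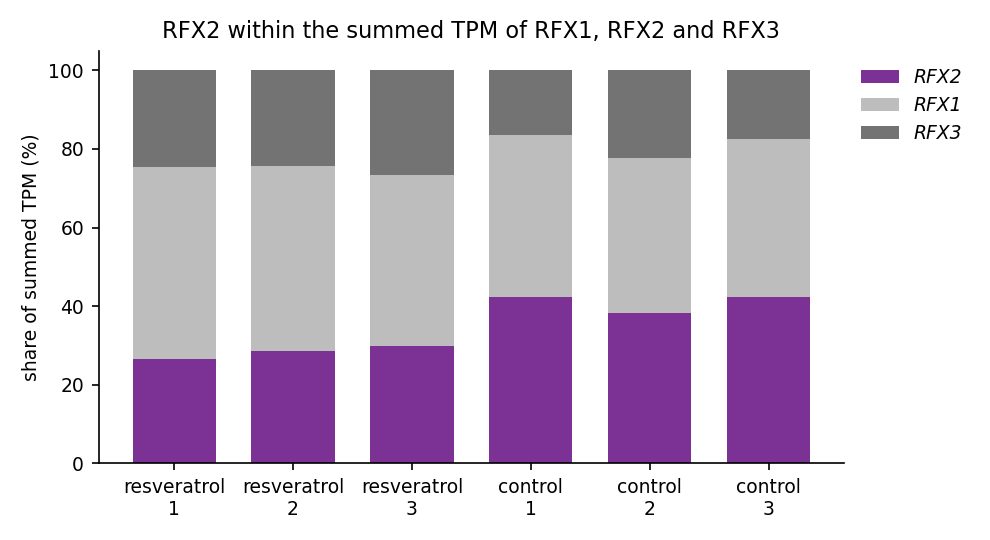
Share (vertical axis, percent, from 0) of RFX2, RFX1 and RFX3 in their summed TPM, 1 bar per library, resveratrol libraries on the left. RFX2 takes 26.6% to 29.9% in resveratrol and 38.2% to 42.2% in control.

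The 2 measured subunits of the MHC class II complex lay on opposite sides of 0. RFX5, the subunit that contacts DNA, measured 3.69, 4.77 and 3.44 TPM in resveratrol 1, 2 and 3, against 4.50, 6.32 and 4.35 TPM in control 1, 2 and 3. The groups overlapped, with a log2 fold change of -0.26 (SE 0.18, 95% interval -0.65 to 0.13, edgeR adjusted p = 0.750). RFXANK measured 23.3, 25.2 and 19.4 TPM in resveratrol, against 19.9, 21.3 and 19.7 TPM in control. Its groups overlapped in TPM but not in scaled counts, where they ran from 21.4 to 25.4 CPM (counts scaled to the library total) in resveratrol and from 18.4 to 21.3 CPM in control. The log2 fold change was 0.22 (SE 0.16, 95% interval -0.13 to 0.57, edgeR adjusted p = 0.753). RFXANK overlaps the gene NR2C2AP in the RefSeq annotation of Sscrofa11.1. The strand setting of the counting is not given in the sources used here, so reads of the overlap cannot be assigned with certainty. NR2C2AP itself had a log2 fold change of 0.19 (SE 0.22).

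Transcripts of RFXANK per transcript of RFX5 numbered 6.30, 5.28 and 5.63 in resveratrol 1, 2 and 3, against 4.41, 3.38 and 4.52 in control 1, 2 and 3. Every resveratrol library stood above every control library, with means of 5.74 ± 0.520 and 4.10 ± 0.630 (SD, n = 3 each). The exact permutation test gave a two-sided p = 0.1, the smallest that 3 against 3 libraries allow, and 0.2 after adjustment over the 2 ratios. The ratio was singled out after the values of both genes were seen.

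RFX7 measured 1.48, 1.26 and 1.09 TPM in resveratrol 1, 2 and 3, against 1.98, 3.22 and 1.44 TPM in control 1, 2 and 3. The control libraries were spread widely, and control 3 lay within the resveratrol range. The log2 fold change was -0.67 (SE 0.24, unadjusted p = 0.0171, edgeR adjusted p = 0.733). It was -0.43 (unadjusted p = 0.0621) without control 2 and -0.87 (unadjusted p = 0.00231) without control 3.

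Across the family, 5 of 6 log2 fold changes were below 0, as were those of 51.2% of all tested rows. Their median was -0.39, against -0.0075 over all tested rows. Of the 5 members other than RFX2, RFX1 and RFX7 were lower at an unadjusted p under 0.05, beside 4.32% of all rows. Groups did not overlap in scaled counts for RFX1 and RFX2 in the lower direction (6.97% of all rows) and for RFXANK in the higher direction (5.67%). These counts rest on the contrast for which the family was chosen, and nothing is read from them. Without resveratrol 3 neither RFX1 nor RFX7 had an unadjusted p under 0.05. All 6 signs were kept in 16 of 16 alternative settings.

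**Figure D3:**
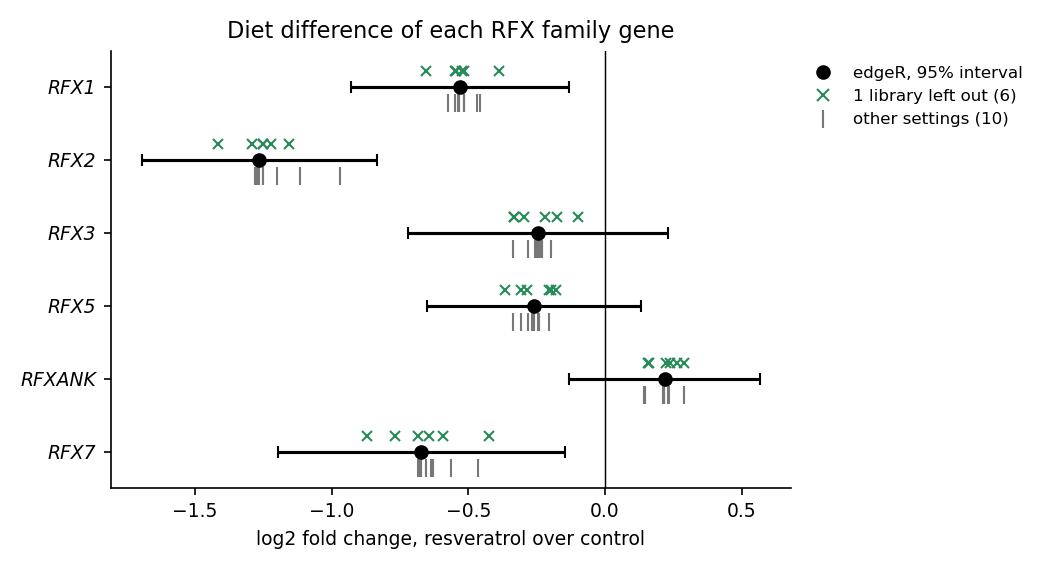
Log2 fold change, resveratrol over control (horizontal axis), of the 6 RFX family genes. Black points are edgeR estimates with 95% intervals, green crosses the values with 1 library left out and grey ticks those under 10 other settings. RFX2, for which the family was chosen, lies furthest from 0 at -1.27, and RFXANK is the only member above 0.

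The genes with which the RFX5 complex works in antigen presentation were examined next. CIITA, the coactivator that the complex recruits, measured 6.84, 4.43 and 3.69 TPM in resveratrol 1, 2 and 3, against 4.57, 6.07 and 5.12 TPM in control 1, 2 and 3, with a log2 fold change of 0.06 (SE 0.20). The NF-Y subunits NFYA, NFYB and NFYC, which bind the neighbouring Y box, had log2 fold changes of -0.07, 0.23 and -0.17. CREB1, another partner at these promoters, and NLRC5, the class I counterpart of CIITA, had -0.13 and 0.05. None of these 6 partners had an unadjusted p under 0.05, and their median log2 fold change was -0.01.

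Of the MHC class II genes, named SLA in pigs, 5 of 9 listed were matched by symbol. The unmatched genes may have rows without a symbol. SLA-DMB, a chain of the peptide-loading catalyst, measured 67.2, 38.5 and 43.8 TPM in resveratrol 1, 2 and 3, against 36.0, 36.0 and 37.9 TPM in control 1, 2 and 3. Its log2 fold change was 0.51 (SE 0.22, unadjusted p = 0.0382), and it was the only one of the 5 at an unadjusted p under 0.05, beside 2.21% of all rows in the higher direction. CD74, the invariant chain that escorts class II molecules, measured 654, 427 and 389 TPM in resveratrol, against 428, 457 and 427 TPM in control. Resveratrol 1 was the highest library for both genes. The groups of SLA-DMB did not overlap in TPM but did in scaled counts, and the TPM of CD74 in the other resveratrol libraries lay at or below the control range. SLA-DQB1 had a log2 fold change of -0.05 (SE 0.24), SLA-DMA of -0.06 (SE 0.25) and SLA-DOA of 0.30 (SE 0.32). The median of the 5 was 0.21 on all libraries and -0.11 without resveratrol 1. Beside this, all 10 tested macrophage and dendritic cell markers had a log2 fold change above 0 (median 0.47, and 0.27 without resveratrol 1), 5 of them at an unadjusted p under 0.05, beside 2.21% of all rows in the higher direction. Their summed TPM ran from 589 to 856 in resveratrol and from 469 to 552 in control. The part of these cells in the class II values was not tested. MSR1, a scavenger receptor, averaged 9.18 ± 0.304 TPM in resveratrol and 6.19 ± 1.46 TPM in control, and AIF1 had a log2 fold change of 0.61. Of the 12 genes listed for class I, 5 were matched by symbol, namely TAP1, TAP2, TAPBP, PSMB8 and PSMB9 of peptide processing and loading. The class I chains and B2M were not matched and were not analysed here. Among the 5 matched genes the proteasome subunit PSMB9 had the smallest unadjusted p, with a log2 fold change of 0.24 (SE 0.20), and the median was 0.04.

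Genes of the cilium, the best known targets of RFX2 and RFX3, were divided into 3 lists. Motile cilium genes were mostly at or near 0, with 22 of 27 matched genes under 1 TPM in every library. FOXJ1, which drives motile ciliogenesis, had at most 1 read in any library, and GMNC, a regulator of multiciliated cells, had 0. Of the 7 that passed the filter, 0 had an unadjusted p under 0.05. ZMYND10, a factor of dynein arm assembly, averaged 0.686 ± 0.0894 TPM in resveratrol and 0.439 ± 0.142 TPM in control, and CCDC65, of the regulatory complex between microtubule doublets, 0.560 ± 0.148 TPM in resveratrol and 0.912 ± 0.239 TPM in control. ENKUR had a log2 fold change of 0.34 (SE 0.23). The median of the 7 was 0.11, and 0.43 without control 2.

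Most genes that build any cilium passed the filter. Genes of intraflagellar transport (IFT, the carriers that move cargo along the cilium) and of the BBSome, its membrane cargo adaptor, formed a list of 41. Of these, 37 were matched by symbol and 36 passed the filter. Among the 36 tested genes, 23 had a log2 fold change above 0 and 13 below. Their median was 0.10, with 0.01 on log2(TPM + 0.5) in limma. IFT46 measured 45.2, 47.0 and 49.1 TPM in resveratrol 1, 2 and 3, against 32.6, 42.8 and 39.0 TPM in control 1, 2 and 3, with no overlap and a log2 fold change of 0.40 (SE 0.15, unadjusted p = 0.0279). WDR35 had 0.37 (SE 0.15, unadjusted p = 0.0363). These were the only ones of the 36 at an unadjusted p under 0.05, and 0 were so in the lower direction, beside 2.21% higher and 4.32% lower of all rows. IFT57 and IFT52 had log2 fold changes of 0.35 and 0.33, against -0.42 for BBS12 and -0.37 for DYNC2I1. Groups did not overlap in 6 higher and 3 lower of the 36, beside 5.67% higher and 6.97% lower of all tested rows. Of 19 tested genes of the transition zone and basal body, the gate and anchor of the cilium, 7 were above 0 and 12 below, with a median of -0.09 and 0 at an unadjusted p under 0.05. CC2D2A averaged 3.48 ± 0.634 TPM in resveratrol and 5.12 ± 1.96 TPM in control, and B9D2 22.3 ± 4.63 TPM in resveratrol and 16.4 ± 3.13 TPM in control. That median was 0.07 without control 2 and 0.0025 without resveratrol 2.

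Of 12 genes reported as RFX7 targets in human cells, 4 had a log2 fold change above 0 and 8 below, with a median of -0.11 (0.0044 without control 1). KDM6B, a histone demethylase, measured 1.59, 1.64 and 0.999 TPM in resveratrol 1, 2 and 3, against 2.82, 3.53 and 1.77 TPM in control 1, 2 and 3. Its groups did not overlap, and the log2 fold change was -0.84 (SE 0.24, unadjusted p = 0.00518). It was the only one of the 12 at an unadjusted p under 0.05, beside 4.32% of all rows in the lower direction. In scaled counts the groups did not overlap for 3 of the 12, KDM6B, SESN3 and TOB1, all lower in resveratrol. Beside this stood 6.97% of all tested rows in the lower direction. SESN3, TOB1 and KLHL24 had log2 fold changes of -0.25, -0.19 and 0.22.

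**Figure D4:**
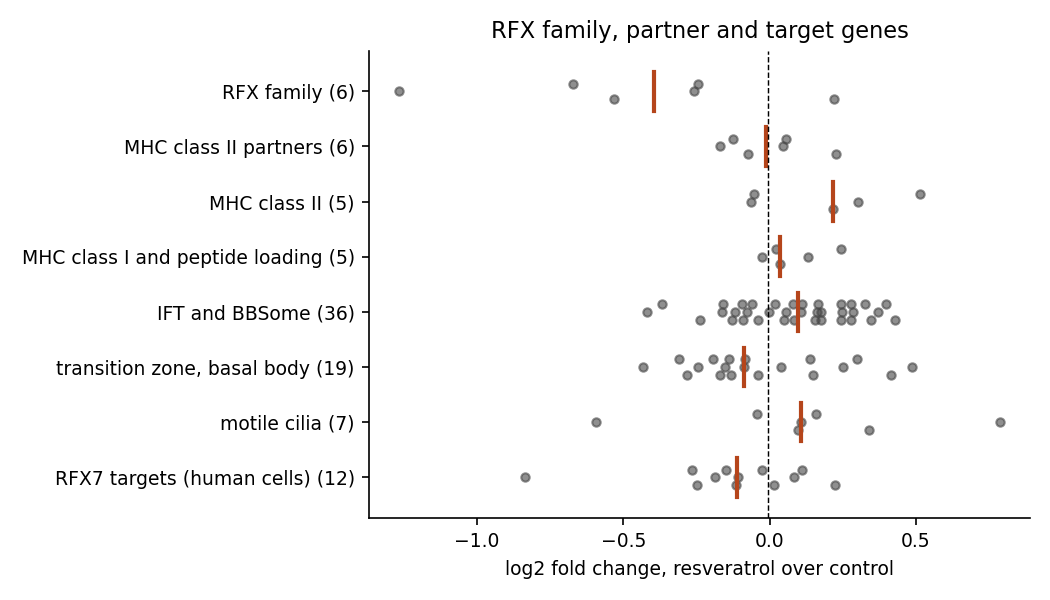
Log2 fold change, resveratrol over control (horizontal axis), of each tested gene (points) of the RFX family and of 7 lists of partner and target genes, with the number tested in brackets and a red bar at the list median. The dashed line is the median of all tested rows. The list labelled MHC class II partners includes NLRC5, the class I counterpart of CIITA. The family median is -0.39, and the 7 other medians lie between -0.11 and 0.21.

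Among tested genes with a symbol, the 5 whose log2 CPM over the 6 libraries was most like that of RFX2 were TAF4, EBF3, TEAD4, PCDH12 and MLXIP, with Pearson's r from 0.982 to 0.994. The 6 points share 2 diet groups, and within groups the same r ran from 0.669 for TEAD4 to 0.961 for MLXIP. TAF4, a subunit of the general factor TFIID, measured 2.84, 3.11 and 2.32 TPM in resveratrol 1, 2 and 3, against 4.62, 6.003 and 5.07 TPM in control 1, 2 and 3. MLXIP, a glucose-sensing transcription factor, measured 4.04, 5.07 and 3.16 TPM in resveratrol, against 7.05, 8.11 and 6.55 TPM in control. In both genes resveratrol 3 was the lowest library and resveratrol 2 the highest of its group, as for RFX2. Both genes were picked for likeness to RFX2, so a shared order follows in part from that choice. The order within resveratrol was the same for the TPM of RFX1, RFX3, RFX5 and RFXANK, and not for RFX7. Within the family, r with RFX2 was 0.942 for RFX1, 0.801 for RFX5, 0.716 for RFX7, 0.647 for RFX3 and -0.61 for RFXANK. These values hold the diet gap on which RFX2 was selected, and within groups r was 0.889 for RFX1, 0.629 for RFX5, -0.138 for RFX7, 0.353 for RFX3 and 0.833 for RFXANK, so that the sign of RFX7 and RFXANK was the opposite.

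The genes next to RFX2 in the RefSeq order of Sscrofa11.1 were named by position and not by value. On one side, the log2 fold change of MLLT1 was -0.19 (SE 0.17), that of ACER1 was -0.10 (SE 0.41), and ACSBG2 lay below the filter. On the other, RANBP3, CAPS and NDUFA11 had -0.29 (SE 0.16), -0.04 (SE 0.33) and 0.24 (SE 0.28). None of these 5 tested neighbours had an unadjusted p under 0.05. Since RFX2 was selected for its difference, no contrast with its neighbours is read from these values.

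Markers of other cell types also differed between the libraries beside these results. TNMD, of tendon, measured 0.162, 0.163 and 0.527 TPM in resveratrol 1, 2 and 3, against 37.1, 0.602 and 2.70 TPM in control 1, 2 and 3. COL2A1, of cartilage, averaged 0.996 ± 0.0754 TPM in resveratrol and 8.05 ± 3.43 TPM in control. Its groups did not overlap, and its log2 fold change was -3.99 (SE 0.77, edgeR unadjusted p = 0.00185). The 5 tendon and cartilage markers had a median log2 fold change of -3.77 (-2.05 without control 1). Their summed TPM ran from 3.18 to 5.13 in resveratrol and from 7.50 to 101 in control. Of 6 tested stromal markers 4 had a log2 fold change below 0 and 2 above, LUM with 0.16 among the latter. At an unadjusted p under 0.05, 2 were lower, PDGFRB with -0.63 and COL1A1 with -1.40, beside 4.32% of all rows. The groups of both PDGFRB and COL1A1 overlapped. The stromal median of -0.32 was 0.0080 without control 1. The median was 0.19 for adipocyte markers (0.42 without control 3), 0.02 for endothelial markers, 0.46 for T cell markers (-0.11 without resveratrol 1) and 0.77 for Schwann cell markers (0.11 without resveratrol 1). Of the 4 tested endothelial markers, TEK was higher (log2 fold change 0.40) and CDH5 (-0.29) and PECAM1 (-0.22) were lower. The groups of these 3 did not overlap in scaled counts, beside 5.67% higher and 6.97% lower of all tested rows. Only 2 of 5 skin and 2 of 5 skeletal muscle markers were matched by symbol. These stayed at or under 1.07 TPM in sum per list in every library. The part of these cell types in the RFX values was not tested.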

How the data were processed

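The authors deposited, per the file headers, read counts (whole numbers) and TPM for 22844 rows in each of 6 libraries, and a table of the whole series with the TPM of 14777 rows, whose values equal those of the library tables (largest difference 0 TPM). The submitters' processing notes name Bowtie 0.12.2 and, although all Ensembl identifiers in the tables are of pig, mm8 and mm9, which are mouse builds. Which pig build, counting program and strand setting were used is not given in the sources used here. Reads of close paralogs or overlapping genes cannot be assigned with certainty. Symbols came from a table that matched 14750 rows.

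Rows averaging 0.5 TPM or more were tested with edgeR 4.0.16 (TMM scaling, robust quasi-likelihood test, Benjamini-Hochberg adjustment over all 14908 rows, threshold 0.05), tested first on simulated data. The SE is the log2 fold change divided by the square root of F. DESeq2 1.42.0, limma 3.58.1 on log2 TPM (pseudocount 0.5, 1 or 0.1), other scalings and filters, a replicate block and fits that omit 1 library each were alternatives, run in R 4.3.3. CPM in the text is counts scaled to the TMM-adjusted library total, and log2 CPM has a prior count of 2. Members and gene lists were chosen with earlier results of these data known. The text names all members and the 5 genes most like RFX2. Genes named from a list of partners or targets came from its first 6 by unadjusted p. Those named from a marker list came from its first 4. Not all of these first genes are named. FOXJ1, GMNC, RFX6, RFX8, NR2C2AP and the neighbours of RFX2 were added after the values were seen. Small RNA was not analysed here.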

Additional observations from a re-analysis of the deposited data

How the results depend on the processing

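All 6 RFX family log2 fold changes kept their sign in the 16 alternatives run, and none of the 5 members other than RFX2 passed an adjusted p under 0.05 in any of them. RFX2, on which the family was selected, is given no test, although DESeq2 counted it among its calls. RFX2 ranged from -1.28 to -0.97 across settings, with the smallest size on log2(TPM + 1), where a pseudocount shrinks the change of a low gene. The number of rows called by diet was 40 in DESeq2 and 0 in the other settings on all libraries, and 0 to 5 with 1 library left out. The number of members at an unadjusted p under 0.05, RFX2 included, was 3 on all libraries, beside 6.53% of all rows. It was 1 to 3 with 1 library left out. Since RFX2 was selected on this contrast, nothing is read from these counts. For the intraflagellar transport and BBSome list the median was 0.16 with library totals alone, 0.0091, 0.0087 and 0.0101 in limma on TPM after adding 0.5, 1 and 0.1, and 0.0372 to 0.159 with 1 library left out. For the partners of the RFX5 complex, NLRC5 included, it was -0.14, -0.13 and -0.15 in the same 3 limma settings. With 1 library left out it was -0.104 to 0.02995. For stromal markers it was 0.0903 without the 20 rows with most reads, since the collagens leave the list, and -0.43 to 0.0080 with 1 library left out. With 1 library left out the medians ran from -0.11 to 0.33 for MHC class II genes, from -0.0196 to 0.427 for motile cilium genes and from -0.11 to 0.67 for T cell markers. Causes were not tested beyond these constructions.

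Replicate numbers are shared between the groups in the titles, but the labels do not say that they mark a pair. For that reason the main fit used no block. Deviations from the group means correlated at 0.157, 0.0741 and 0.200 for same-numbered libraries 1, 2 and 3. For libraries with different numbers the values ran from -0.154 to 0.0121. Each library correlated best with its own number, so these values do not settle whether the numbers mark pairs. With the replicate number as a block, 0 rows passed the adjusted threshold, and 1259 had an unadjusted p under 0.05 in place of 973. RFX2 had a log2 fold change of -1.28 in that fit. Reads per library numbered 165 to 273 for RFX3, 188 to 486 for RFX2 and 316 to 474 for RFX7.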
